A study of Mus musculus with 2 samples.

Results

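The genes described here are the glycosyltransferases that build and cap mucin-type sugar chains in adult mouse small intestine. Members were all protein-coding genes whose symbol starts with Galnt, B3gnt, B3galt, B4galt, B4galnt, Fut, St3gal, St6gal, St6galnac, St8sia or Gcnt followed by a number, together with C1galt1. The rule took 75 of the 43346 Ensembl genes in the deposited tables, and used no measured value. Antisense genes whose symbols begin in the same way (Galnt6os and St8sia3os) are not protein-coding and were left out. The rule is wider than its name, because it also takes enzymes that act mainly on N-glycans (Fut8, St6gal1, B4galt1), on glycolipids (B4galnt1, B3galt4, St3gal5, B4galt6) and on the linker of glycosaminoglycans (B4galt7, B3galt6).

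The tissue was small intestine of C57BL/6J mice at 8 weeks of age, taken from littermates of both sexes and pooled over males and females, with no segment of the intestine named and the health state given as unknown. RNA longer than 200 nt was selected for poly(A) tails and depleted of ribosomal RNA, and stranded libraries with spike-in RNA were sequenced as paired reads of 76 nt. There was 1 group of 2 libraries, numbered biological replicates 1 and 2 and made from separate biosamples under 1 donor entry. The design therefore holds no comparison between conditions: what follows gives levels, how they are divided among the enzymes, and how far the replicates differed, without p-values. The libraries held 45472946 and 45822403 expected counts in replicates 1 and 2. Levels are in TPM, a share of all transcripts in a library on a fixed total, which is scaled by transcript length, so that genes can be compared within a library.

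Mucin-type O-glycans start in the Golgi, where a GALNT enzyme links N-acetylgalactosamine (GalNAc) to serine or threonine of the protein. C1GALT1 adds galactose to make core 1, or B3GNT6 adds N-acetylglucosamine (GlcNAc) to make core 3, and GCNT enzymes branch these cores. B3GNT and B4GALT enzymes then lengthen the chain by adding GlcNAc and galactose in turn. Fucosyltransferases, sialyltransferases and B4GALNT enzymes cap it. In the gut these chains make up most of the mass of the mucins, both those of the mucus gel and those of the glycocalyx on enterocytes, and serve as attachment sites and food for bacteria.

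The replicates differed in tissue markers. Here and below, past 2-fold means a log2 ratio of TPM + 1 between the replicates that lies more than 2-fold from that of the median gene. Of all 12260 genes with a mean of at least 1 TPM, 6.32% were past it higher in replicate 1 and 5.03% in replicate 2. The 15 exocrine pancreas markers had a sum of 272137 TPM in replicate 1, against 1791 TPM in replicate 2, and all 15 were past 2-fold higher in replicate 1. The 10 stomach markers summed to 19753 and 51.5 TPM, and the 8 of them with a mean of at least 1 TPM were all past 2-fold higher in replicate 1. The other 2, Atp4a (0.95 and 0.30 TPM) and Atp4b (0.05 and 0.07 TPM), stayed under 1 TPM in both libraries. Small intestine markers were present in both libraries: all 11 enterocyte markers were at 1 TPM or more in each, with sums of 7204 and 12016 TPM. Of these 11, 6 were past 2-fold higher in replicate 2, Anpep among them (511.74 and 2686.72 TPM), and the median relative log2 ratio was -1.55. Alpi was past 2-fold higher in replicate 1 (3758.93 and 1663.08 TPM) and made up 52.2% of the enterocyte sum there. The 7 goblet cell markers had sums of 9052 and 20452 TPM, and 2 of them were past 2-fold higher in replicate 2. The 6 Paneth cell markers summed to 2440 and 10621 TPM, and all 6 were past 2-fold higher in replicate 2. The part that pancreas or stomach RNA has in the glycosyltransferase values was not tested. In bulk tissue, fewer cells of a type and less RNA per cell cannot be told apart.

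Of the 75 members, 46 (61.3%) reached 1 TPM in both libraries, against 49.3% of all 21474 protein-coding genes matched to the annotation. Another 24 members stayed under 1 TPM in both libraries, and 5 reached it in 1 library only. B3gnt4 and Gcnt7 had no count in either library. Members with 10 TPM or more in both libraries numbered 15. The summed level of the 75 genes was 907.00 TPM in replicate 1 and 1550.55 TPM in replicate 2 (mean 1229 ± 455, SD, n = 2), which is 0.0907% and 0.155% of each library. With the pancreas and stomach marker lists taken out and TPM rescaled to the full total, the sums were 1281 and 1553 TPM. Only the listed genes were removed, and the log2 ratio of the median gene, replicate 1 over replicate 2, was then still -0.25. The median level of the 46 detected members was 7.10 and 10.5 TPM, against 8.12 and 13.6 TPM for all detected protein-coding genes.

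**Figure D1:**
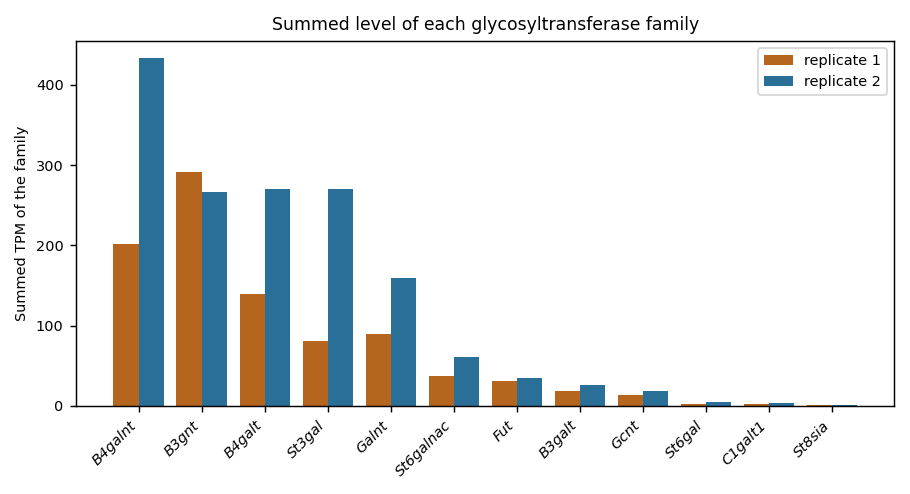
Summed TPM of each glycosyltransferase family (y axis, linear) in replicate 1 and replicate 2 (1 bar each, no error bars). B4galnt reaches 201.06 and 433.30 TPM and B3gnt 291.00 and 266.99 TPM, while St8sia stays at 1.58 and 1.02 TPM.

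A few genes carried much of the total. The top 3 members of each library made up 47.1% of the summed level in replicate 1 and 48.8% in replicate 2. In replicate 1 they were B3gnt3, B4galnt1 and B4galnt2, and in replicate 2 B4galnt1, St3gal4 and B3gnt3. As the bar plot of family sums shows, B3gnt stood first in replicate 1 with 291.00 TPM and B4galnt first in replicate 2 with 433.30 TPM.

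Promoter sequence is shown for 5 members that the results below turn on: the leading extension enzyme, the leading sialyltransferase, B4galt5 and B3gnt7, whose levels differed between the replicates, and the transcript start of Gcnt2 that gave the largest share of its level. Each is the 250 bases before the transcription start in RefSeq (GRCm38.p6), written 5′ to 3′ on the strand of the gene, with the matches to 6 motifs in capitals. The motifs, searched on both strands, were a TATA box (TATAAA), a GC box (GGGCGG), and core letters of sites for CDX (TTTATG), HNF1 (GTTAAT, a part of its site), HNF4 (CAAAGTC) and GATA factors (AGATAA). All 5 starts lay within 14 bases of the start of the leading transcript in the deposited tables.
B3gnt3, chr8:71701801-71702050, minus strand: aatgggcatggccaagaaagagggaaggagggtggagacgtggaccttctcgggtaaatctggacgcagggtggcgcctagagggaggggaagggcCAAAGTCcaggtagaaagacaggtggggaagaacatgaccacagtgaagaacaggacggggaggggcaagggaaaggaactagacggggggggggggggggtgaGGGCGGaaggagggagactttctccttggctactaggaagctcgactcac
St3gal4, chr9:35116865-35117114, minus strand: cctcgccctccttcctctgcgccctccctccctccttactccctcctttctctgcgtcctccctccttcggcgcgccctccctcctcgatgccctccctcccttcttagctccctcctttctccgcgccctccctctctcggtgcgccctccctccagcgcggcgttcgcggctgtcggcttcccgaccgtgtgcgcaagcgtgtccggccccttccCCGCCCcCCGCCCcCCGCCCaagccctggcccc
B4galt5, chr2:167349179-167349428, minus strand: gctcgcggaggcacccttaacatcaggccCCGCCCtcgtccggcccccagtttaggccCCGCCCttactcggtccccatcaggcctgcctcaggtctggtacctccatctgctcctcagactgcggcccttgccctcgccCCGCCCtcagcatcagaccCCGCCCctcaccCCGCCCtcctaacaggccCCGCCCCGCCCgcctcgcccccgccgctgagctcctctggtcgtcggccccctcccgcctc
B3gnt7, chr1:86302971-86303220, plus strand: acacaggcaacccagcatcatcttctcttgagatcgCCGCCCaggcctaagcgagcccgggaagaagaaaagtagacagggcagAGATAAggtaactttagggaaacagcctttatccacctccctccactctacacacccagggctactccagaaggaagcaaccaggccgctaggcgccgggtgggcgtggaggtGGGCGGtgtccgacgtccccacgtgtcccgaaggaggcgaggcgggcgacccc
Gcnt2, chr13:40859518-40859767, plus strand: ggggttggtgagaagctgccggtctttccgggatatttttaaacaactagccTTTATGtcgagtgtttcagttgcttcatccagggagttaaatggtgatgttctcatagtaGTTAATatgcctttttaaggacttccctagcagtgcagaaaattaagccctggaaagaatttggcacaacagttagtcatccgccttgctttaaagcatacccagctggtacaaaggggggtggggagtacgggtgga

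The B4galt5 window held 7 GC boxes, of which 1 pair overlaps, the St3gal4 window held 3 in a row, B3gnt7 held 2 and B3gnt3 held 1. GC boxes were found in 32.7% of all 32851 RefSeq promoter windows of this length and in 38 of the 75 windows of members. B3gnt3 also held 1 HNF4 match, at 154 bases before the start, a motif present in 3.84% of all windows. B3gnt7 held 1 GATA match, present in 9.99% of all windows. Its window also lies within a minor retained-intron transcript of the same gene, which took 1.11% and 0.47% of the B3gnt7 level. The St3gal4 window lies inside the annotated gene span, chr9:35046576-35119268 on the minus strand. The deposited tables hold only 1 transcript of St3gal4, so they give no level for a start farther upstream. The Gcnt2 window held 1 CDX match (10.8% of all windows) and 1 HNF1 match (6.43%). None of these 5 windows held a TATA box, which 12.4% of all windows do. RefSeq windows were at hand for 55 of the 75 members, with 75 windows in all and a median GC content of 60.0%, against 52.4% for all windows. A match is a description of the letters and not of binding.

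The mRNA for the first step of the chain was spread over many enzymes. Of 17 Galnt genes, 10 were detected, and the family sum was 89.27 TPM in replicate 1, against 159.31 TPM in replicate 2. Galnt6 led with 28.25 and 60.05 TPM, or 31.6% and 37.7% of the family. Galnt10, which prefers substrates that already carry GalNAc, followed with 17.33 and 30.30 TPM, and Galnt12 with 14.45 and 23.14 TPM. The order of these 3 enzymes was the same in both libraries. The broadly expressed transferases Galnt1 and Galnt2 had 8.12 and 17.54 TPM, and 7.66 and 6.95 TPM. Galnt2 shares exon sequence on the same strand with the protein-coding gene Gm20388, listed at 17.45 and 30.2 TPM, which makes its own share of the reads uncertain. The same holds for Galnt4 (2.09 and 2.80 TPM), which shares sequence with Poc1b (2.86 and 4.47 TPM). Galnt3, which in other tissues glycosylates the phosphate hormone FGF23, was at 3.76 and 3.58 TPM. Galnt11 (1.90 and 5.64 TPM), Galnt7 (1.77 and 3.03 TPM) and Galnt18 (2.07 and 3.07 TPM) completed the detected set. Galnt15 passed 1 TPM in replicate 2 only (0.58 and 1.69 TPM), and Galnt5, Galnt9, Galnt13, Galnt14, Galnt16 and Galnt17 stayed under 1 TPM in both.

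Galnt6 lies at chr15:100691813-100729376 on the minus strand (mm10), and an antisense gene inside it, Galnt6os, had 12.02 TPM (705 counts) in replicate 1 and no count in replicate 2. The libraries are stranded by label, but whether the authors' counting used strand is not stated in the sources used here. In all, 32 of the 75 members share exon sequence with a gene on the opposite strand and 5 with a gene on the same strand. For B4galnt1, the partner Slc26a10 was at 0.44 and 0.71 TPM, below B4galnt1 in both libraries. Other partners stood above the member: Bckdha had 55.79 and 75.2 TPM over B3gnt8 (3.33 and 6.34 TPM), and Slc6a9 had 39.04 and 34.15 TPM over B4galt2 (5.41 and 6.17 TPM). The levels of B3gnt8 and B4galt2 are uncertain for that reason if counting ignored strand, which was not tested. Counts of B3gnt8 (210 and 314) and Bckdha (4362 and 4607) were whole numbers. B4galt2 also shares exon sequence on the same strand with Ccdc24 (0.64 and 1.63 TPM). Neither had whole counts: B4galt2 had 408.66 and 339.52, and Ccdc24 had 45.34 and 63.95.

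The 5 genes for O-glycan cores had a summed level of 14.82 and 23.13 TPM, with a median per gene of 1.67 and 4.16 TPM, against 1.90 and 3.03 TPM for the 17 Galnt genes. C1galt1, the core 1 enzyme (chr6:7844842-7875687, plus strand), had 1.67 TPM in replicate 1 and 3.97 TPM in replicate 2. Its private chaperone C1galt1c1 (Cosmc), which is not a member, had 1.88 and 2.60 TPM. B3gnt6, the core 3 enzyme, was at 1.15 and 4.16 TPM. The core 2 branching enzymes had a different leader in each library. Gcnt3, the mucin-type enzyme that can also make core 4, had 7.87 and 4.56 TPM, and Gcnt4 had 3.51 and 9.81 TPM. Gcnt3 thus stood above Gcnt4 in replicate 1 and below it in replicate 2. Gcnt1, the leukocyte-type core 2 enzyme, was under the detection limit at 0.62 and 0.63 TPM.

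**Figure D2:**
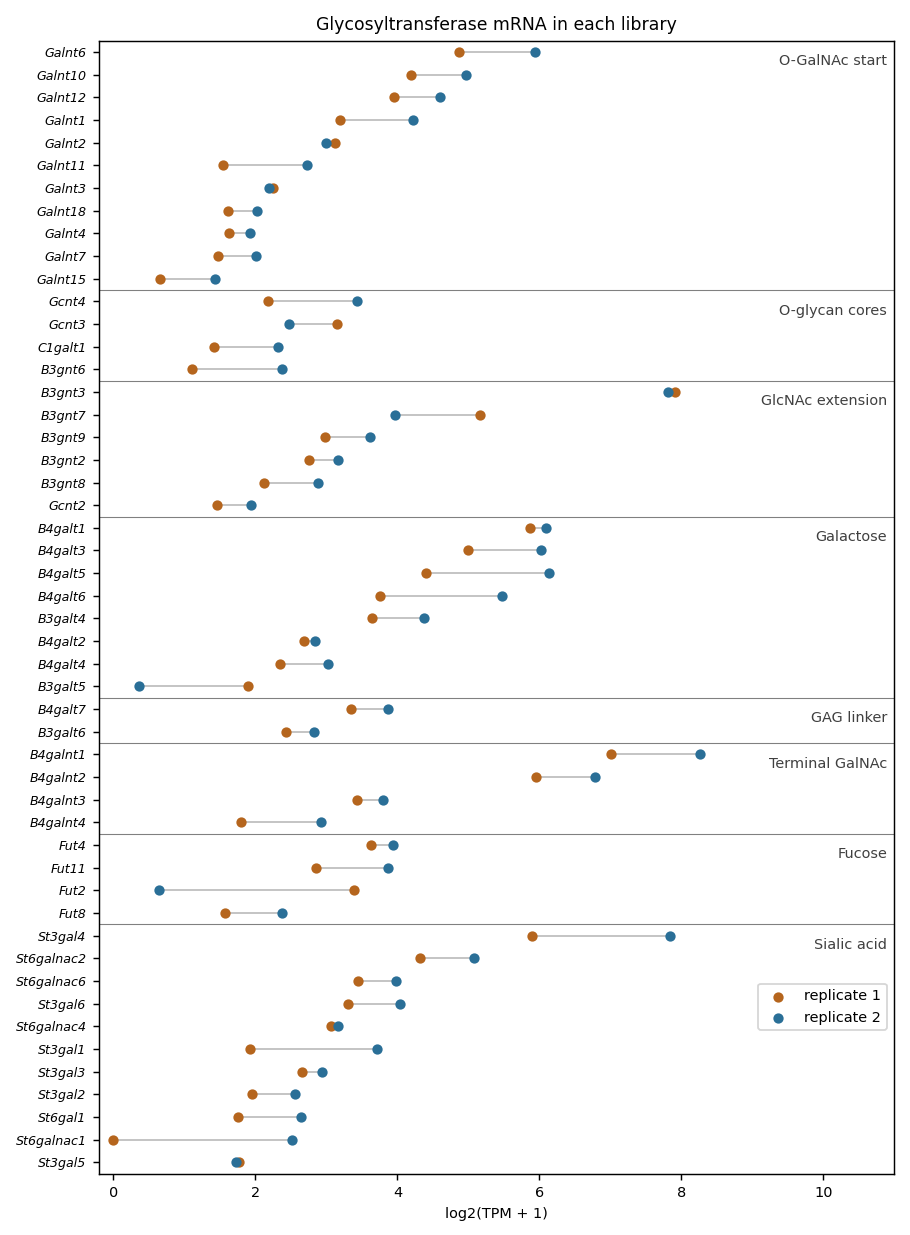
Level of each member with a mean of at least 1 TPM (x axis, log2 of TPM + 1), grouped by the step the enzyme takes part in, with 1 point for replicate 1 and 1 for replicate 2 joined by a line. B3gnt3 and B4galnt1 lie farthest right, Galnt6 leads the O-GalNAc start, and Fut2 and St6galnac1 have the longest lines.

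Most of the mRNA for chain extension enzymes was that of B3gnt3. This enzyme lengthens core 1 with GlcNAc, and its gene lies at chr8:71690756-71701789 on the minus strand. It had 238.74 TPM in replicate 1 and 222.57 TPM in replicate 2 (mean 231 ± 11.4, SD, n = 2). Relative to the median gene, B3gnt3 was higher in replicate 1 but within 2-fold (relative log2 ratio 0.76). It ranked 308th and 580th among all protein-coding genes, and made up 82.0% and 83.4% of the B3gnt family. It was the member with the highest level in replicate 1 and the third highest in replicate 2. B3gnt7, which is known for the extension of keratan sulfate chains, came next with 34.94 and 14.64 TPM. B3gnt9 (6.86 and 11.22 TPM), B3gnt2, a main enzyme of poly-N-acetyllactosamine synthesis (5.76 and 7.98 TPM), and B3gnt8 (3.33 and 6.34 TPM) were below B3gnt7 in both libraries, B3gnt9 by a small margin in replicate 2. Most of the B3gnt9 TPM (71.1% and 65.07%) came from the 642 nt B3gnt9-203, on 100.83 and 121.99 of 314 and 448 counts. B3gnt5, which starts lacto-series glycolipids, stayed under 1 TPM in both libraries. Gcnt2, which branches the linear chains into the I antigen, was at 1.76 and 2.84 TPM.

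The mRNA for galactose addition was spread over several B4galt enzymes. All 7 were detected, with sums of 139.70 TPM in replicate 1 and 270.66 TPM in replicate 2. B4galt1 had 57.60 and 67.15 TPM and led in replicate 1 with 41.2% of the family. B4galt5, a lactosylceramide synthase, had 20.17 and 69.38 TPM and led in replicate 2 with 25.6%. B4galt3 had 30.81 and 63.82 TPM, and B4galt6, the other lactosylceramide synthase, had 12.50 and 43.44 TPM. In replicate 2, B4galt5, B4galt1 and B4galt3 lay within 6 TPM of each other. B4galt2 (5.41 and 6.17 TPM) and B4galt4 (4.07 and 7.15 TPM) were lower. Of the enzymes that add galactose in beta1,3 linkage, B3galt4, the ganglioside GM1 synthase, had 11.52 and 19.71 TPM. B3galt5, which makes type 1 chains in gut epithelium, had 2.72 TPM (680 counts) in replicate 1 and 0.28 TPM (54 counts) in replicate 2. B3galt1 and B3galt2 stayed under 1 TPM in both libraries. The glycosaminoglycan linker enzymes B4galt7 (9.14 and 13.55 TPM) and B3galt6 (4.38 and 6.09 TPM) were detected in both.

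The B4galnt family, which adds terminal GalNAc, was detected in full and had sums of 201.06 TPM in replicate 1 and 433.30 TPM in replicate 2. B4galnt1, the ganglioside GM2 and GD2 synthase, lies at chr10:127165225-127172330 on the plus strand. It had 128.07 and 304.51 TPM (mean 216 ± 125, SD, n = 2), with 14581 and 27061 counts, and ranked 560th and 414th among protein-coding genes. Its relative log2 ratio was -0.58, within 2-fold. B4galnt2, the enzyme of the Sda antigen on intestinal mucins, had 60.76 and 109.28 TPM. B4galnt3 (9.74 and 12.91 TPM) and B4galnt4 (2.49 and 6.60 TPM) make the GalNAc-GlcNAc unit known as LacdiNAc.

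Fucosyltransferases differed most between the replicates in their alpha1,2 branch. Fut2, the secretor enzyme that makes the H antigen on gut epithelium, had 9.44 TPM (1263 counts) in replicate 1 and 0.56 TPM (58 counts) in replicate 2. Its neighbour Fut1, which makes the same linkage, had 0.78 and 0.99 TPM, and Fut1 and Fut2 lie 27531 bases apart on chromosome 7. Together they summed to 10.22 and 1.55 TPM, with Fut2 the leader in replicate 1 and Fut1 in replicate 2. Fut4, which adds alpha1,3 fucose, had 11.37 and 14.30 TPM and led the family in both libraries. Fut11 had 6.22 and 13.60 TPM, and Fut8, the core fucosyltransferase of N-glycans, 1.98 and 4.19 TPM. Fut7, Fut9 and Fut10 stayed under 1 TPM in both libraries.

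Sialyltransferases were led by St3gal4. This enzyme, which caps galactose with alpha2,3 sialic acid, lies at chr9:35046576-35119268 on the minus strand and had 58.24 TPM in replicate 1 and 229.00 TPM in replicate 2 (mean 144 ± 121, SD, n = 2). It made up 72.3% and 84.7% of the St3gal family, all 6 genes of which were detected. St3gal6 had 8.90 and 15.35 TPM, St3gal3 5.32 and 6.67 TPM, and St3gal2 2.85 and 4.87 TPM. By counts St3gal6 (533 and 479) was below St3gal3 (568 and 565). The 498 nt St3gal6-209 gave 42.05% and 36.52% of the St3gal6 TPM on 49.91 and 61.91 counts. St3gal1, which caps core 1, had 2.79 and 12.09 TPM, and St3gal5, the GM3 synthase, had 2.40 and 2.30 TPM. Of the St6galnac genes, St6galnac2 led with 18.99 and 32.92 TPM, followed by St6galnac6 (9.90 and 14.75 TPM) and St6galnac4 (7.34 and 7.93 TPM). The St6galnac2 counts were 2480 in replicate 1 and 2536 in replicate 2. St6galnac1, the sialyl-Tn synthase, had no count in replicate 1 and 4.72 TPM (404.06 estimated counts) in replicate 2. St6gal1, which caps N-glycans, had 2.37 and 5.23 TPM. No St8sia gene, the family that links sialic acids to each other, was detected in both libraries: St8sia6 had 1.01 and 0.45 TPM and the other 5 stayed under 1 TPM. The genes St6gal2, St6galnac3 and St6galnac5 were also under 1 TPM in both.

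Ratios between the replicates are given as log2 of (TPM + 1) in replicate 1 over (TPM + 1) in replicate 2, relative to the median of the 12260 genes with a mean of at least 1 TPM. The uncentred median gene was at -0.66. A total of 50 members passed the same minimum and 25 did not. Their median was 0.00, with 25 above and 25 below the median gene, and the values ran from -1.85 to 3.41. For all 12260 genes the quartiles were -0.33 and 0.35. A total of 4 members were more than 2-fold higher in replicate 1, against a background of 6.32% of all genes, and 5 were more than 2-fold higher in replicate 2, against 5.03%. The other 41 lay within 2-fold. Over the 50 members, Pearson's r of the log2 levels was 0.877 and Spearman's rho 0.869; these describe agreement across genes, which share the same libraries.

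Replicate 1 was higher for Fut2 (relative log2 ratio 3.41), B3galt5 (2.20), B3gnt7 (1.86) and Gcnt3 (1.34). Of these, B3gnt7 rested on 4153 counts in replicate 1 and 1359 in replicate 2, and Gcnt3 on 1627 and 734. The Gcnt3 value was within 2-fold, at 0.67, when the ratio was not centred on the median gene. Replicate 2 was higher for St6galnac1 (-1.85), St3gal4 (-1.29), St3gal1 (-1.12), B4galt5 (-1.07) and B4galt6 (-1.05). For St6galnac1, the share of counts was lower in replicate 1 than in replicate 2 by about 134-fold or more. That value takes a floor of 3 counts for the library at 0 and is not centred on the median gene. The floor covers counting error only. Its estimate in replicate 2 is not a whole number, as happens where reads are shared between features. St3gal4 rested on 5312 counts in replicate 1 and 16337 in replicate 2. Both B4galt5 and B4galt6 lay close to the 2-fold limit, and each lay within it under another setting. Each ratio compares 2 libraries of 1 group and has no replicate check.

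**Figure D3:**
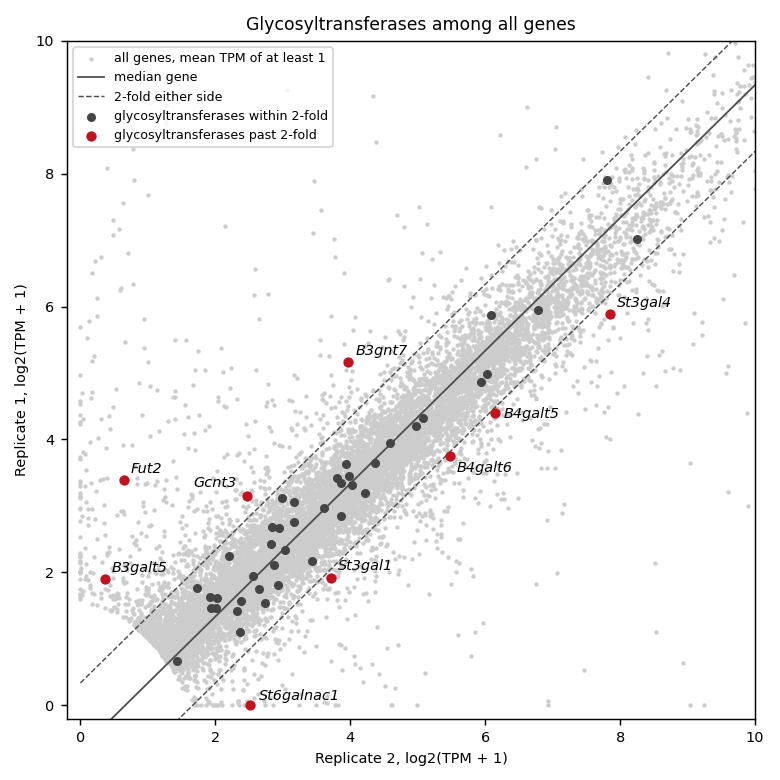
Level of each gene with a mean of at least 1 TPM in replicate 1 (y axis) and replicate 2 (x axis), both as log2 of TPM + 1 and drawn up to 10, with glycosyltransferases as large points, the median gene as a solid line and 2-fold either side as dashed lines. Fut2, B3galt5, B3gnt7 and Gcnt3 lie above the upper dashed line, and St6galnac1, St3gal4, St3gal1, B4galt5 and B4galt6 below the lower one.

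The deposited tables also give a credibility interval for each TPM, which covers the uncertainty of the quantification and not that between animals, and is not centred. For 5 of the 50 members the interval of replicate 1 lay wholly above that of replicate 2, against 6.37% of all genes: Fut2, B3galt5, B3gnt7, Gcnt3 and B3gnt3. For 38 members the interval of replicate 2 lay above, against 73.5% of all genes. The remaining 7, B4galt2, Galnt2, Galnt3, Galnt7, St3gal2, St3gal5 and St6galnac4, overlapped.

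Of the 46 detected members, 17 had 1 transcript in the deposited tables and 29 had several. The same transcript led in both libraries for 27 of the 29. In 9 of the 29 the leading transcript took at least 90% of the level in both libraries, B3gnt7 and B4galt5 among them. In 7 of the 29, B4galnt3 included, the share of the transcript with the highest mean differed by more than 10 percentage points. For B4galt1 the leading transcript B4galt1-202 had 66.1% in replicate 1 and 53.1% in replicate 2. Galnt6 used 3 protein-coding transcripts: Galnt6-201 gave 44.6% and 43.9%, Galnt6-202 gave 22.1% and 34.0%, and Galnt6-203 gave 33.3% and 22.1%. Gcnt2 has alternative first exons, each joined to shared downstream exons, and Gcnt2-203, whose promoter is printed above, gave 58.4% and 47.9%, Gcnt2-201 gave 32.7% and 33.7%, and Gcnt2-202 gave 8.9% and 18.4%. In St6galnac2, St6galnac2-201 led with 63.5% and 45.03%, and the noncoding St6galnac2-205 was at 0% in replicate 1 and 26.7% in replicate 2. St6galnac2-205 is 579 nt long and rested on 125.06 of the 2536 gene counts in replicate 2. TPM is scaled by length, so a short transcript takes a larger share of TPM than of counts. All of the B3galt5 TPM was listed for B3galt5-201, and its other 3 transcripts were at 0 in both libraries. By posterior mean TPM, the share of B3galt5-201 was 94.57% in replicate 1 and 59.42% in replicate 2. With 54 counts in replicate 2, the shares there are uncertain.

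The exceptions were B4galnt3 and St6gal1. For B4galnt3, the noncoding B4galnt3-202 (annotated as a processed transcript) had 58.2% in replicate 1 and 46.6% in replicate 2, and the protein-coding B4galnt3-201 took the rest. B4galnt3-202 thus led in replicate 1 only. For St6gal1, the protein-coding St6gal1-201 had 49.2% and 44% and St6gal1-205 had 48.4% and 56%, so that their order turned on a small gap in replicate 1. The median share of a detected member's TPM from protein-coding transcripts was 100%, and 31 members had it in full, to the nearest percent, in both libraries. B4galnt3 and St6galnac4 were the 2 members under 80% in both libraries.

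**Figure D4:**
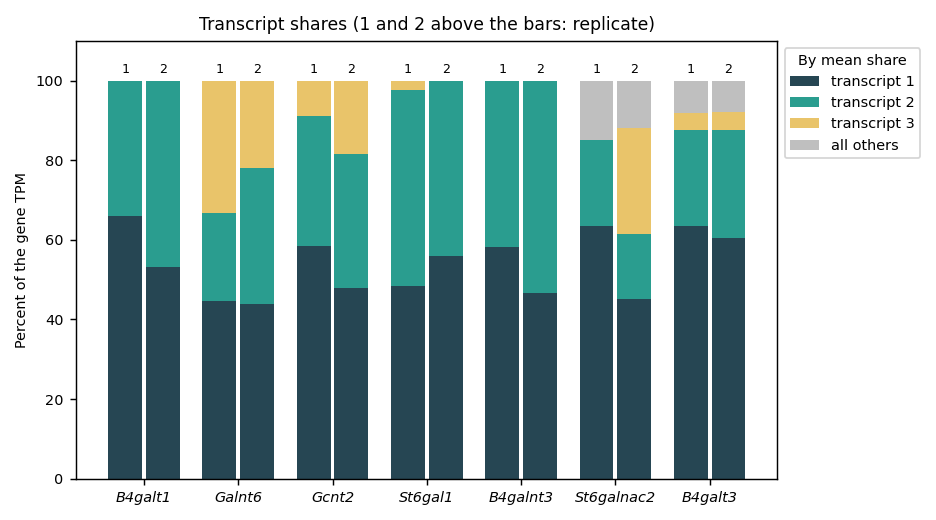
Percent of the gene's TPM (y axis) from each transcript of 7 members with several transcripts, with replicate 1 left and replicate 2 right for each gene and transcripts ordered by mean share. Shares of B4galt1 and Gcnt2 differ by more than 10 points between replicates. St6galnac2-205 (579 nt) takes 26.7% of the St6galnac2 level in replicate 2, on 125.06 counts, and none in replicate 1.

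Genes that supply the donor sugars all lay within 2-fold of the median gene where they could be compared. Most genes did so: 6.32% of all genes were past 2-fold higher in replicate 1 and 5.03% in replicate 2. Of 28 genes for sugar nucleotide synthesis, 23 were detected, with sums of 892 TPM in replicate 1 against 1593 TPM in replicate 2, and none of the 24 with a mean of at least 1 TPM was past 2-fold in either direction (median relative log2 ratio -0.08). Gmds, the first enzyme from GDP-mannose to GDP-fucose, had 164.72 and 189.14 TPM, and Pmm2, a phosphomannomutase, had 92.35 and 195.79 TPM. Uap1l1 had 104.13 and 296.09 TPM. Cmah, which converts Neu5Ac to Neu5Gc, was under 1 TPM in both libraries (0.53 and 0.47 TPM). Of 11 Golgi carriers of sugar nucleotides, 9 were detected (sums 321 and 491 TPM), and none of the 10 that passed the minimum was past 2-fold. The GDP-fucose carrier Slc35c1 had 99.68 and 129.54 TPM and the UDP-galactose carrier Slc35a2 27.87 and 49.93 TPM.

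Among 23 other O-glycan and capping enzymes, 16 were detected, with sums of 188 TPM in replicate 1 and 300 TPM in replicate 2. Of the 17 that passed the minimum, 2 were past 2-fold and both were higher in replicate 1, against 6.32% of all genes. These were A4gnt, which caps the O-glycans of stomach gland mucin with alpha1,4 GlcNAc (6.96 and 0.90 TPM, relative log2 ratio 2.73), and Chst2, a GlcNAc sulfotransferase (5.13 and 1.35 TPM, 2.05). Gal3st1, a sulfotransferase of glycolipids, had 71.12 and 101.48 TPM and Gal3st2 32.65 and 91.93 TPM. The blood group gene Abo was at 0.23 TPM in replicate 1 and listed at 0 in replicate 2.

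The mucins that carry these chains differed between the replicates in both directions. Of 13 mucin genes matched, 6 were detected, with sums of 3042 TPM in replicate 1 against 4456 TPM in replicate 2, and 8 passed the minimum (median relative log2 ratio 1.26). In replicate 1 Muc6 (380.94 and 1.13 TPM) and Muc5ac (157.21 and 0.39 TPM) were past 2-fold higher. The same held for the membrane mucins Muc1 (110.68 and 0.63 TPM) and Muc4 (31.73 and 15.29 TPM). In replicate 2 the main intestinal gel mucin Muc2 (363.08 and 2152.65 TPM) and the brush border mucin Muc3 (42.46 and 541.88 TPM) were past 2-fold higher. The separate entry Muc3a lay within 2-fold (19.47 and 50.89 TPM). Muc13, another membrane mucin, had 1935.23 and 1693.06 TPM and lay within 2-fold. Muc5ac is also on the stomach marker list and Muc2 on the goblet cell list given above.

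Of 16 genes for glycan breakdown, 11 were detected, with sums of 252 TPM in replicate 1 and 560 TPM in replicate 2. Of the 13 that passed the minimum, 2 were past 2-fold, both higher in replicate 2, against 5.03% of all genes. These were the lysosomal sialidase Neu1 (16.62 and 55.92 TPM) and Npl, which splits free sialic acid (0.31 and 5.17 TPM). The lysosomal fucosidase Fuca1 was at 51.29 and 90.87 TPM.

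**Figure D5:**
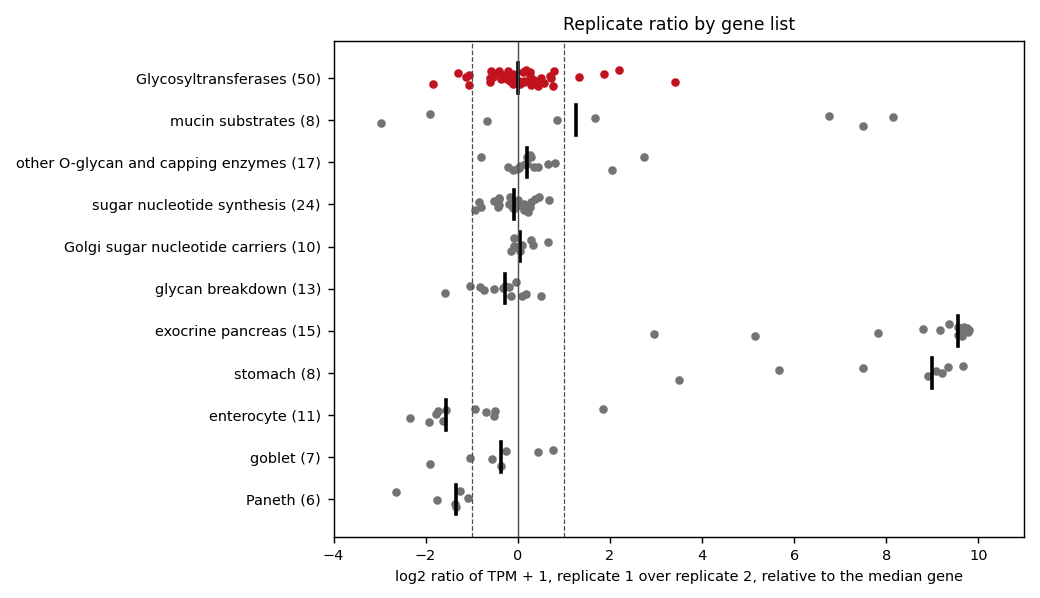
Relative log2 ratio of TPM + 1, replicate 1 over replicate 2 (x axis), for each gene with a mean of at least 1 TPM in the glycosyltransferases, 5 lists of pathway genes and 5 marker lists (number of genes in brackets), with a black bar at the median and dashed lines at 2-fold. The 50 glycosyltransferases centre on 0.00, and the exocrine pancreas, stomach and mucin lists reach far to the right.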

How the data were processed

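Polyadenylated RNA of 1 group of 2 small intestine libraries was analysed. Per the labels, the build is mm10, and the deposited README names annotation release M4; the aligner and the quantification program are not stated in the labels or files used here. The authors deposited, for genes and transcripts, expected counts (estimated fragments, not normalized), TPM and FPKM (scaled for length and library), posterior mean TPM, credibility bounds whose level is not stated, and the percent of a gene's TPM from each transcript. TPM has a fixed total, so the high pancreas and stomach marker sums in replicate 1 leave less of it for all other genes there.

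Gene names and biotypes came from GENCODE M21 (42462 of 43346 Ensembl genes matched; 14 of the 75 members had the same version number), and promoters from RefSeq. Coordinates are 1-based. Detection meant at least 1 TPM in both libraries. Ratios were log2((TPM + 1)/(TPM + 1)), replicate 1 over replicate 2, centred on the median of 12260 genes with a mean of at least 1 TPM, and past 2-fold was counted. With 1 group no test of conditions exists; Python 3.11.15 with pandas 2.3.3 was used, and alternatives used edgeR 4.0.16 (TMM factors) and DESeq2 1.42.0 (size factors) on expected counts rounded to whole numbers. The ratio procedure was tested on simulated data.

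Members and lists were chosen with earlier results of these data known. Any member could be named; of each pathway list, the 4 highest genes, those past 2-fold and those under 1 TPM. C1galt1c1 was named outside this rule, as the chaperone of a member, after its values were seen. Muc3a, Atp4a and Atp4b were also named outside it, after their values were seen. Of the mucins listed, Muc16 and Muc17 had no match. Marker lists for other cell types were summed in the same way and are given here only for pancreas, stomach, enterocytes, goblet and Paneth cells.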

Additional observations from a re-analysis of the deposited data

How the results depend on the processing

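With a pseudocount of 5 TPM, 2 members were past 2-fold in replicate 1 (3.21% of all genes) and 3 in replicate 2 (4.52%). Without centring, the median relative log2 ratio of members was -0.66 and 14 members were past 2-fold in replicate 2, against 24.9% of all genes. Centred on the spike-in RNAs with a mean of at least 1 TPM, the median was -0.36. Both shifts follow from moving every gene by the same amount. With a mean of at least 5 TPM, 2 of 33 members were past 2-fold in replicate 2 (5.38% of all genes), and a detection minimum of 5 TPM left 27 detected, since fewer genes enter. Leaving out a replicate gave 48 members detected without replicate 1 and 49 without replicate 2, and a summed level of 1550.55 and 907.0 TPM; a ratio needs both libraries and was not recomputed. The other 41 of 48 recomputed summary values stayed within their limits. No ratio of a called gene changed sign. Over 9 alternatives, Fut2, B3gnt7 and St3gal4 were past 2-fold in 9. B3galt5 (0.98), St3gal1 (-0.70) and St6galnac1 (-0.53) fell within 2-fold at a pseudocount of 5 TPM, B4galt5 at 0.1 TPM (-0.99), and B4galt6 under TMM and DESeq2 scaling (lowest size -0.98). Gcnt3 fell within 2-fold in 3 settings: a pseudocount of 5 TPM, no centring (0.67) and centring on the spike-in RNAs. No centring and spike-in centring move every gene by the same amount. For the other values named here the cause was not tested. No paired analysis was possible because there is 1 group. Depth limits values at 0: a count of 0 in replicate 1 allows up to 3 counts, or 6.6e-06% of that library.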
